A study of Arabidopsis thaliana with 12 samples.

Results

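The xyloglucan endotransglucosylase/hydrolase (XTH) family of Arabidopsis thaliana was measured in seedlings of Col-0 and spaQ at 22 °C (called cool) and 28 °C (called warm). The family was taken as the 33 genes XTH1 to XTH33, found by their locus identifiers among 33655 features of the count table. Col-0 is the wild-type accession, and spaQ is the field's name for a line mutated in the 4 SPA genes, SPA1 to SPA4, with alleles that the labels do not give. Each of the 4 groups of genotype and temperature had 3 libraries made from whole seedlings. All groups shared 3 days of cold in the dark on MS medium without sucrose and 5 days at 22 °C under white light of 25 µmol, and were harvested at an age of 6 days. The length of the temperature treatment is 24 h in the design text and 4 h in the protocols of the samples, and those protocols name 22 °C only, so the 28 °C groups rest on the titles and characteristics. The labels do not say whether replicates were separate cultures, so the p-values below measure the spread between these libraries, which may be technical.

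XTH enzymes work in the primary cell wall, where xyloglucan chains coat and link cellulose microfibrils. Most members cut a xyloglucan chain and rejoin the new end to another chain, which allows a wall to be remodelled without losing its links, while a few members hydrolyse the chain instead. The genes differ in where and when they are expressed: some are known from roots and root hairs, some from growing shoots and shaded petioles, and TCH4 (XTH22) was found as a gene induced by touch, heat, cold and brassinosteroid. SPA proteins are partners of COP1, a ubiquitin ligase that restrains light responses, and the study addresses their role in the gene expression response to raised ambient temperature.

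Expression was read by 3′ Tag-Seq, a method that samples the 3′ end of transcripts, so that long and short transcripts count alike. Total counts ran from 2609808 to 9390725 per library. Levels are given as TMM-normalised CPM, the reads of a gene scaled to equal library size, in the order of replicates 1, 2 and 3. Of the 33 members, 25 had enough counts to be tested with edgeR among 17841 genes. SPA1, SPA2 and SPA3 were lower in the libraries labelled spaQ (SPA1 at 17.1 to 25.4 CPM against 61.2 to 71.4 CPM in Col-0), whereas SPA4 was higher. Whether the 3′ tags lie outside the mutated sites is not given, so that SPA4 checks nothing.

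Root markers differed between groups and between replicates, and their link to the levels of the members was not tested. The summed level of 6 root hair markers was 51.0, 48.4 and 41.8 CPM in cool Col-0 and 1.58, 1.54 and 3.80 CPM in warm Col-0. In spaQ the sum was 22.4, 4.98 and 2.09 CPM at 22 °C and 0, 26.7 and 2.76 CPM at 28 °C. Replicate 1 of cool spaQ and replicate 2 of warm spaQ thus stood apart from the other 4 spaQ libraries, and replicate 1 of warm spaQ had all 6 markers at 0. The 7 endodermis markers summed to 86.1 to 94.2, 25.4 to 32.1, 35.0 to 57.2 and 8.90 to 49.2 CPM in cool Col-0, warm Col-0, cool spaQ and warm spaQ, and 4 other root markers to 3.80 to 6.99, 0.771 to 1.86, 0.383 to 4.37 and 0.614 to 3.42 CPM. The 6 green tissue markers summed to 31070 to 33920, 12530 to 14050, 38270 to 43050 and 22840 to 34720 CPM in the same order. These sums hide markers that went opposite ways. RBCS1A, the largest part of the green sum, had means of 20210 CPM in cool Col-0 and 29340 CPM in cool spaQ. CA1 and GAPB were also higher in cool spaQ by mean, whereas LHCB1.1, LHCB2.1 and PSAD-1 were lower. Of the endodermis markers, MYB36 was higher in cool spaQ than in cool Col-0 and the others were lower. In whole seedlings, fewer cells of a type and less RNA per cell cannot be told apart.

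The summed transcript of the family was higher in warm spaQ seedlings than in any other group, and most of that rise was XTH24. The make-up of the family turned from 9 members listed here as known from growing shoots to XTH24 and its relatives. XTH24 is not on that list, though it is also expressed in growing tissue. The summed level of the 33 members was 1784 ± 71.0 CPM in cool Col-0, 2295 ± 279 CPM in warm Col-0, 2060 ± 468 CPM in cool spaQ and 4559 ± 501 CPM in warm spaQ (SD, n = 3 each). The 3 warm spaQ libraries, at 4953, 3995 and 4729 CPM, lay above all 9 others, the highest of which stood at 2563 CPM. XTH24 made up 13.9% ± 3.5, 28.1% ± 3.1, 40.1% ± 2.9 and 57.3% ± 5.4 of the sum in these groups (SD, n = 3 each). Its mean levels there were 249, 646, 834 and 2610 CPM. XTH4, the leading member in cool Col-0 with 22.0% ± 0.42, made up 8.81% ± 1.7, 5.10% ± 1.7 and 1.70% ± 1.0 in the other groups (SD, n = 3 each). Together TCH4 and its relatives, XTH22 to XTH25, rose from a mean of 15.3% of the sum in cool Col-0 to 75.03% in warm spaQ. Between the same groups, the 9 members known from growing shoots went from 53.1% to 7.70%. The 9 members known from roots and root hairs, XTH18 among them, made up 6.224% and 7.196%. These shares are a description and were not tested.

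**Figure D1:**
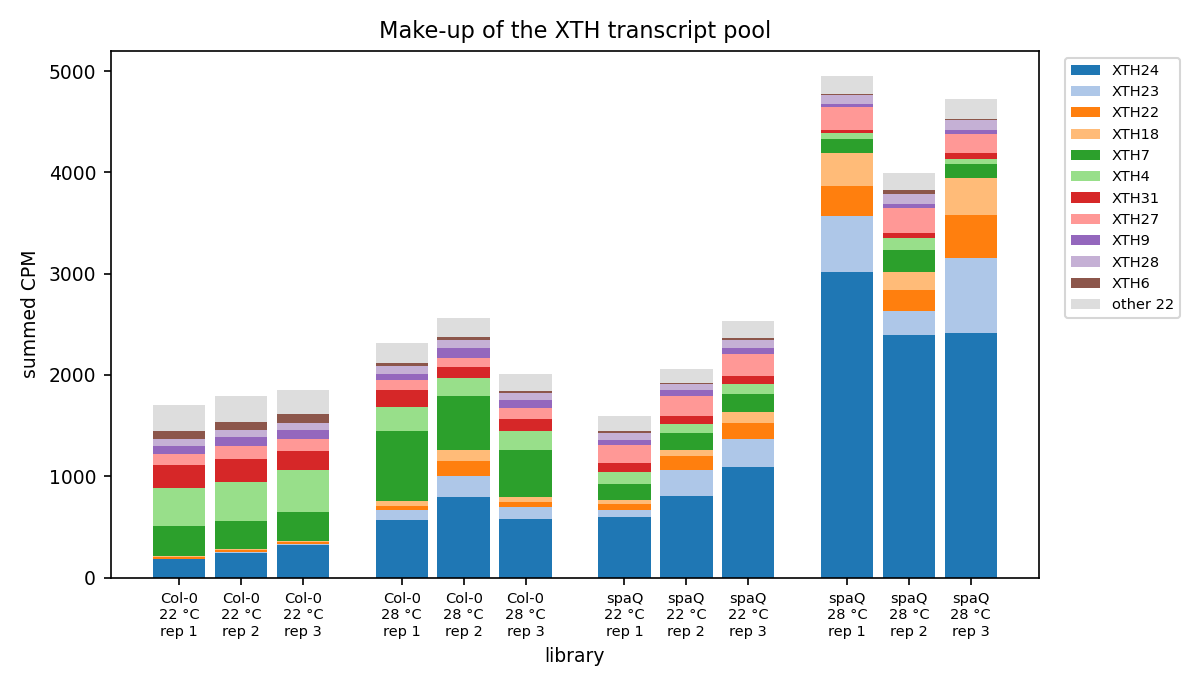
Summed CPM of the XTH family in each of the 12 libraries (bars), divided by member, with the 22 smaller members joined in grey. The blue part at the base is XTH24, which made up a mean of 13.9% of the bar in cool Col-0 and 57.3% in warm spaQ, where the bars reached 3995 to 4953 CPM.

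With warmth, most tested members were called in Col-0 and fewer in spaQ. A count of calls does not measure the size of a change and depends on the spread between libraries. Without replicate 2 of warm spaQ, 4024 genes were called with warmth in spaQ and 8438 in Col-0, against 2217 and 7283 with all libraries. In Col-0, 19 of the 25 tested members had an adjusted p under 0.05 in edgeR's quasi-likelihood test (76%, against 40.8% of all tested genes), with 8 higher and 11 lower at 28 °C where 18.9% and 21.9% of all tested genes were. In spaQ, 6 members passed (24%, against 12.4%), with 4 higher and 2 lower against 6.55% and 5.87% of all tested genes. Between genotypes, 21 members passed at 22 °C (84%, against 42.5%), 7 of them higher in spaQ and 14 lower, against 20.7% and 21.7% of all tested genes. At 28 °C 16 passed (64%, against 30.9%), 8 in each direction, against 17.4% higher and 13.5% lower. The median log2 fold change of the tested members was -0.26, 0.21, -0.73 and 0.39 in these comparisons, against -0.02, 0.02, -0.05 and 0.03 over all tested genes. The comparisons share groups of libraries and are given side by side for that reason. The difference between the warm responses, the interaction, passed for 5 members (20%, against 11.9%), with 2 higher and 3 lower, where 6.58% and 5.29% of all tested genes were.

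**Figure D2:**
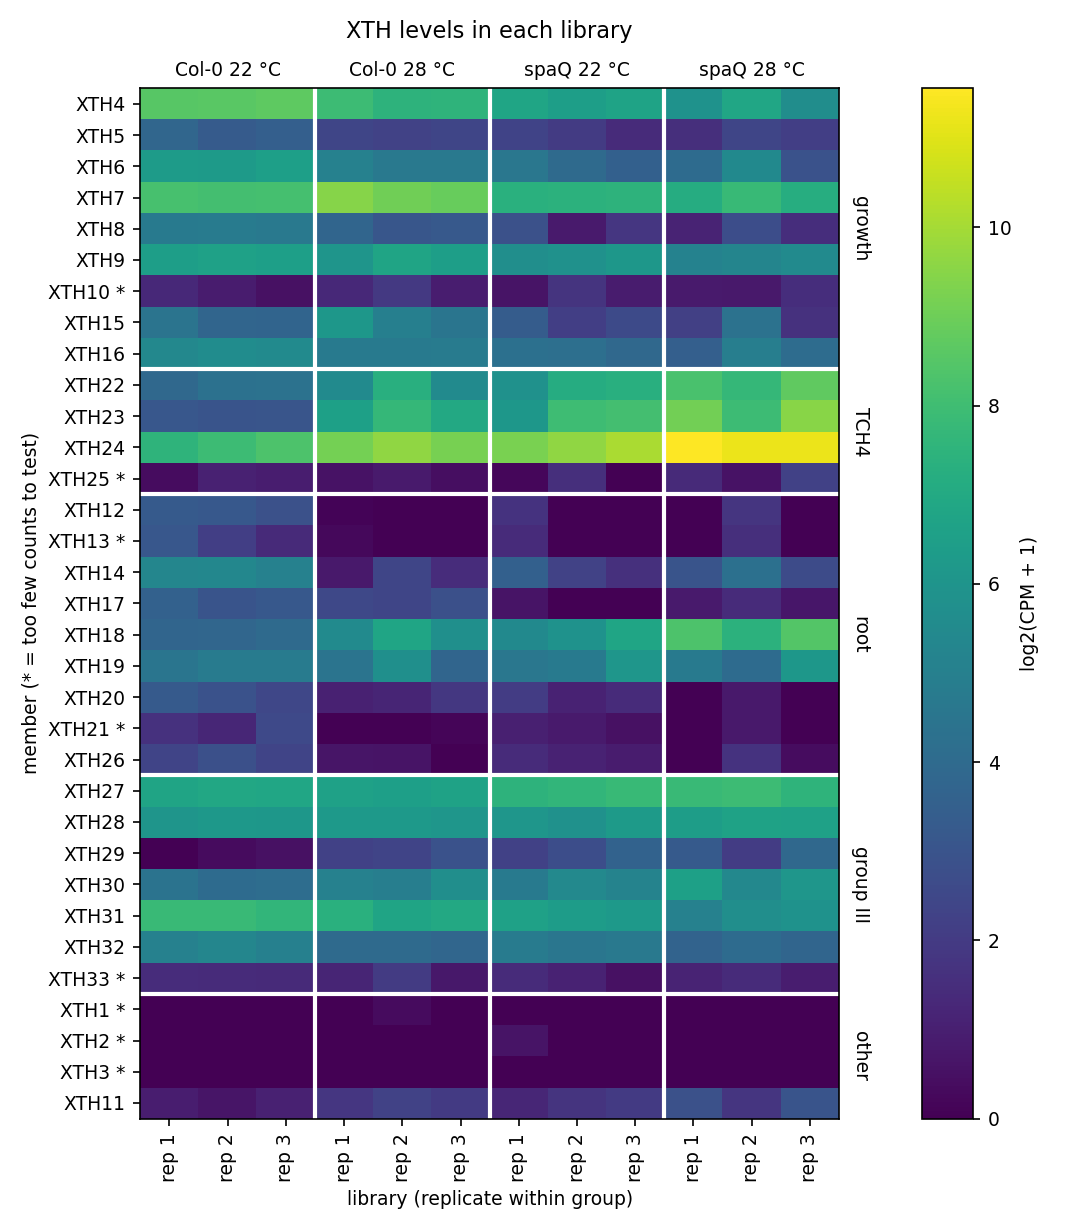
Level of each of the 33 members in each of the 12 libraries, as log2(CPM + 1), with members ordered by role and an asterisk at the 8 members with too few counts to test. XTH24 has the brightest cells, in the 3 libraries of warm spaQ, and XTH12 and XTH13 are dark everywhere but in cool Col-0, replicate 1 of cool spaQ and replicate 2 of warm spaQ.

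TCH4 and its relatives XTH23 and XTH24 were higher in warm than in cool Col-0 and higher in spaQ than in Col-0 at both temperatures. XTH24 (AT4G30270), also called MERI5, is expressed in meristems and growing tissue and had the highest mean share of the family over the 12 libraries. In cool Col-0 XTH4 and XTH7 were above it in mean, and in replicate 1 of warm Col-0 XTH7 was. It stood at 180, 244 and 324 CPM in cool Col-0, 572, 791 and 575 CPM in warm Col-0, 600, 808 and 1093 CPM in cool spaQ and 3018, 2393 and 2418 CPM in warm spaQ. The libraries of cool Col-0 were below all others and those of warm spaQ above all others, whereas warm Col-0 and cool spaQ overlapped. Its log2 fold change with warmth was 1.37 ± 0.24 (SE) in Col-0 (adjusted p = 0.000771) and 1.65 ± 0.24 in spaQ (adjusted p = 0.00157), and the interaction was 0.28 ± 0.34 (adjusted p = 0.654). The genotype difference was 1.74 ± 0.25 at 22 °C (adjusted p = 0.000161) and 2.02 ± 0.25 at 28 °C (adjusted p = 5.57e-05).

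XTH23 (AT4G25810) rose with warmth in Col-0 and was higher in spaQ than in Col-0 at both temperatures. It was at 7.84, 6.99 and 7.16 CPM in cool Col-0 and at 94.2, 207 and 125 CPM in warm Col-0, against 68.4, 250 and 272 CPM in cool spaQ and 554, 240 and 736 CPM in warm spaQ. The Col-0 groups did not overlap, while in spaQ replicate 2 at 28 °C lay among the cool libraries. The warm change was 4.27 ± 0.59 on the log2 scale in Col-0 (19.2-fold, adjusted p = 0.000147). In spaQ it was 1.38 ± 0.47, with an adjusted p of 0.0748, and the difference between these responses was -2.88 ± 0.74 (adjusted p = 0.0263). Without the 2 spaQ libraries that stood apart, the warm change in spaQ passed, at 1.30 ± 0.26 (adjusted p = 0.006), and that difference was -3.03 ± 0.40 (adjusted p = 0.000305). The difference between the responses missed the threshold in 6 of the 12 fits that left out 1 library, namely without any of the 3 replicates of cool Col-0, replicate 2 of warm Col-0 or replicate 2 or 3 of cool spaQ, with an adjusted p of up to 0.0708. Cool spaQ exceeded cool Col-0 by 4.73 ± 0.60 (26.6-fold, adjusted p = 6.97e-05), and warm spaQ exceeded warm Col-0 by 1.85 ± 0.48 (adjusted p = 0.00997).

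TCH4 itself, XTH22 (AT5G57560), was at 13.9, 19.0 and 19.2 CPM in cool Col-0, 44.6, 154 and 45.0 CPM in warm Col-0, 55.8, 140 and 157 CPM in cool spaQ and 297, 207 and 430 CPM in warm spaQ. As for XTH24, cool Col-0 was lowest and warm spaQ highest with no overlap, and the other groups overlapped. Its log2 fold change was 2.19 ± 0.53 with warmth in Col-0 (adjusted p = 0.00529), 2.73 ± 0.53 between genotypes at 22 °C (adjusted p = 0.00149) and 1.97 ± 0.48 at 28 °C (adjusted p = 0.0075). The warm change of 1.42 ± 0.48 in spaQ missed the threshold (adjusted p = 0.0704), and the interaction was -0.77 ± 0.70 (adjusted p = 0.53). Without replicate 2 of warm Col-0, its highest library there, the warm change in Col-0 was 1.36 (adjusted p = 0.0205) and the genotype difference at 28 °C was 2.80. XTH25, which lies next to XTH22 on chromosome 5 with 565 bp between them, had too few counts to test and did not exceed 3.68 CPM in any library.

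**Figure D3:**
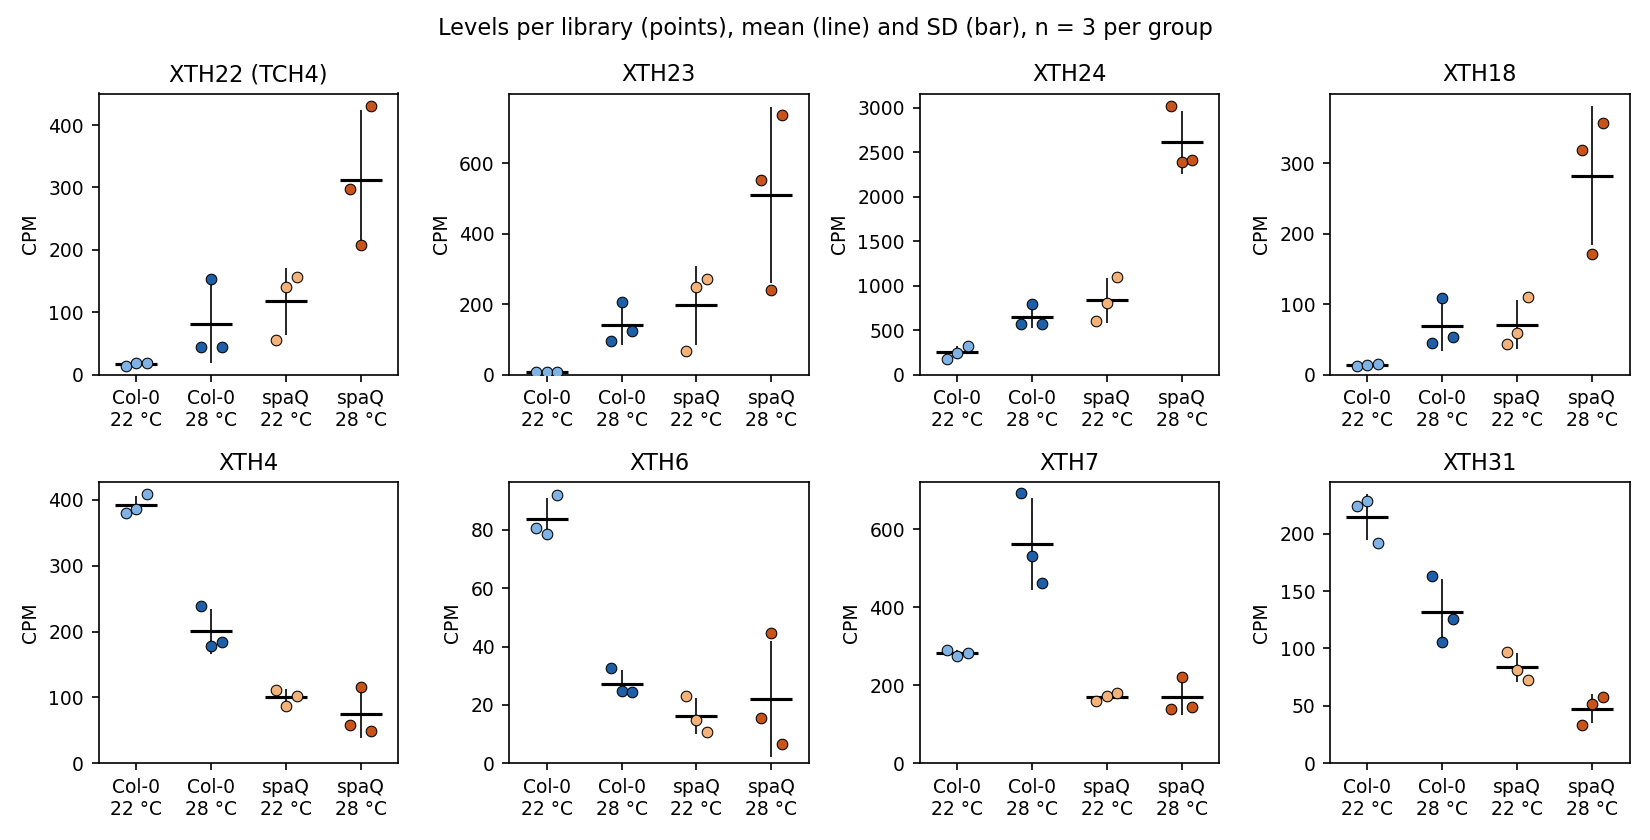
CPM of 8 members in each library (points), with the group mean (line) and SD (bar), n = 3 per group, each panel with its own axis from 0. The upper panels show XTH22, XTH23, XTH24 and XTH18, with cool Col-0 lowest and warm spaQ highest in mean, and the lower panels show XTH4, XTH6, XTH7 and XTH31, with XTH7 at 463 to 693 CPM in warm Col-0 and at most 291 CPM elsewhere.

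XTH17 to XTH20 form a group of similar root genes, and within it XTH18 was higher and XTH17 lower in spaQ than in Col-0. XTH18 (AT4G30280) stood at 12.7, 13.1 and 15.2 CPM in cool Col-0, 44.6, 109 and 53.1 CPM in warm Col-0, 43.4, 59.0 and 110 CPM in cool spaQ and 319, 171 and 356 CPM in warm spaQ. Cool Col-0 was below and warm spaQ above all other libraries. Its warm change was 2.30 ± 0.43 on the log2 scale in Col-0 (adjusted p = 0.00105) and 2.01 ± 0.39 in spaQ (adjusted p = 0.00664), with an interaction of -0.29 ± 0.57 (adjusted p = 0.798). Between genotypes, it was higher in spaQ by 2.35 ± 0.43 at 22 °C (adjusted p = 0.00105) and by 2.05 ± 0.38 at 28 °C (adjusted p = 0.00133).

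XTH17 (AT1G65310) was at 10.9, 6.99 and 8.05 CPM in cool Col-0 and at 4.74, 4.37 and 6.11 CPM in warm Col-0, but at 0.504, 0 and 0 CPM in cool spaQ and 0.792, 1.71 and 0.614 CPM in warm spaQ. No spaQ library reached the lowest Col-0 library. Over the cool groups this is 97 counts in Col-0 against 3 in spaQ, a ratio of 31.2 with a 95% interval of 10.4 to 154 from counting error only (adjusted p = 3.35e-05). At 28 °C spaQ was lower by a log2 fold change of -2.19 ± 0.44 (adjusted p = 0.00224), or -2.88 without replicate 2 of warm spaQ. Its warm change in Col-0 was -0.74 ± 0.31 (adjusted p = 0.0763), and it passed, at -0.67, without the 2 spaQ libraries that stood apart (adjusted p = 0.0375). That fit holds the same Col-0 libraries, and the spread, which all libraries share, was estimated without those 2. With warmth in spaQ XTH17 had 11 counts against 3, a ratio of 4.07 with a counting interval of 1.07 to 22.7 (adjusted p = 0.132). Its interaction did not pass (adjusted p = 0.0601). XTH19, which lies next to XTH18, passed in no comparison (21.4, 27.4 and 26.9 CPM in cool Col-0 and 12.8 to 67.8 CPM over the other 9 libraries). XTH20 was at 8.74, 6.43 and 4.47 CPM in cool Col-0, 1.11 to 2.65 CPM in warm Col-0, 1.15 to 3.19 CPM in cool spaQ and 0, 0.734 and 0 CPM in warm spaQ. It fell by 1.90 ± 0.47 on the log2 scale with warmth in Col-0 (adjusted p = 0.00643) and was lower in cool spaQ than in cool Col-0 by -1.51 ± 0.51 (adjusted p = 0.0289). Warm spaQ held 3 counts of XTH20 against 40 in warm Col-0, a ratio of 5.64 with a counting interval of 1.80 to 28.5 (adjusted p = 0.0484). The interaction of XTH20 was -0.90 ± 1.03 (adjusted p = 0.629). The call of XTH20 at 22 °C was lost without replicate 1 or 2 of cool Col-0 or replicate 2 or 3 of cool spaQ, and that at 28 °C passed in 3 of the 12 fits without 1 library.

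XTH17 and XTH18 are also alike in sequence, which is why the bases before their annotated starts are shown, with those of XTH22 and XTH23, which like XTH18 had their highest mean level in warm spaQ. Each line is the 250 bases before the gene start in RefSeq's TAIR10.1 annotation, 5′ to 3′ on the gene's own strand, matched by locus identifier since the sources used here name no build for the counts. XTH17 lies at chr1:24256804-24257053, plus strand, XTH18 at chr4:14827212-14827461, minus strand, XTH22 at chr5:23308681-23308930, minus strand and XTH23 at chr4:13128144-13128393, plus strand. Capitals mark CATGTG (or CACATG), a PBE-box, which PIF transcription factors are known to bind, and TATAAA (or TTTATA), searched on both strands.
XTH17: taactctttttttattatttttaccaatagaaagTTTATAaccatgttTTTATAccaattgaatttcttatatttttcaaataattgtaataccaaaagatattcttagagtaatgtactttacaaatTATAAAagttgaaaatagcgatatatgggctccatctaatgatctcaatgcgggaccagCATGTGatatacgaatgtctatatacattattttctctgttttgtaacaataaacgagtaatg
XTH18: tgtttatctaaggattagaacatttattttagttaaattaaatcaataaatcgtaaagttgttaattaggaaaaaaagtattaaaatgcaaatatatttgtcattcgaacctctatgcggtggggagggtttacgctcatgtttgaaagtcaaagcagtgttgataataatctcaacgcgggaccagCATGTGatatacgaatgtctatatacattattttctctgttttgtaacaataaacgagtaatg
XTH22: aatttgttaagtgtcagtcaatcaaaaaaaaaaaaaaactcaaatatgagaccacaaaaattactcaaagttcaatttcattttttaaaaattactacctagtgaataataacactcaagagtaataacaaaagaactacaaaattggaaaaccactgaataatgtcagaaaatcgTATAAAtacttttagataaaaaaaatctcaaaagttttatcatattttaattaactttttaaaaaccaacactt
XTH23: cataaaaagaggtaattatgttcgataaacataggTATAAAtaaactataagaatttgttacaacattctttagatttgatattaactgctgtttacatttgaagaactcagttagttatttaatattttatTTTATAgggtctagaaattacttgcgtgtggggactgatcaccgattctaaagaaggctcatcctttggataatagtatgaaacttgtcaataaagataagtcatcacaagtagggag
The last 73 bases of XTH17 and XTH18 are identical, as are 87 of the last 100, and both carry CATGTG with its first base 63 bases before the start. Their coding sequences are 85.6% identical, and no stretch of 50 nt at the 3′ ends of XTH17, XTH18, XTH19 or XTH20 was found in another gene. The levels given above nonetheless differed between spaQ and Col-0 in opposite directions.

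Over the family, the G-box CACGTG was found in 0 of 33 windows of 250 bases, against 6.46% of the windows of 27561 genes, and in 4 of 33 windows of 1000 bases, those of XTH7, XTH8, XTH25 and XTH30 (12.1%, against 14.7%). The PBE-box was found in 5 of 33 shorter windows, those of XTH17, XTH18, XTH25, XTH26 and XTH33 (15.2%, against 11.1%), and in 13 of 33 longer ones (39.4%, against 37.6%). TATAAA or TTTATA was found in 18 of 33 shorter windows (54.5%, against 47.3%). These matches describe letters in a window and show no binding.

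Most tested members listed here as known from growing shoots were lower in spaQ than in Col-0 and lower in warm than in cool Col-0. The list was drawn up with earlier results of these data known. XTH24, also expressed in growing tissue, is not on it and went the other way. Its log2 fold changes were 1.37 with warmth in Col-0 and 1.74 and 2.02 between genotypes at 22 °C and 28 °C. Of the 9 members of this kind, 8 were tested: 5 fell and 1 rose with warmth in Col-0 (21.9% and 18.9% of all tested genes did), and none passed in spaQ (12.4% of all tested genes did). Between genotypes 7 were lower in spaQ at 22 °C and 5 at 28 °C, against 21.7% and 13.5% of all tested genes. Their median log2 fold changes were -0.87, 0.05, -1.59 and -1.27 in these 4 comparisons. XTH4 (AT2G06850), an enzyme of elongating stems and leaves, was at 380, 386 and 409 CPM in cool Col-0, 240, 178 and 183 CPM in warm Col-0, 112, 87.4 and 103 CPM in cool spaQ and 58.6, 115 and 49.1 CPM in warm spaQ. The spaQ libraries were all below the Col-0 libraries. XTH4 changed by -0.97 ± 0.24 on the log2 scale with warmth in Col-0 (adjusted p = 0.00705), and spaQ was lower by -1.96 ± 0.25 at 22 °C (adjusted p = 8.53e-05) and by -1.42 ± 0.25 at 28 °C (adjusted p = 0.000906). The interaction was 0.54 ± 0.35 (adjusted p = 0.357). Without the 2 spaQ libraries that stood apart, XTH4 also passed with warmth in spaQ, at -0.83 ± 0.17 (adjusted p = 0.00523).

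XTH7 (AT4G37800) was the growth member that rose with warmth in Col-0, and that rise was not shared by spaQ. It stood at 291, 274 and 283 CPM in cool Col-0 and at 693, 532 and 463 CPM in warm Col-0, against 158, 173 and 179 CPM in cool spaQ and 140, 222 and 145 CPM in warm spaQ. The Col-0 groups were apart, and the spaQ groups overlapped below both. The warm change was 0.99 ± 0.18 on the log2 scale in Col-0 (1.99-fold, adjusted p = 0.0009) and within 0.01 of 0 in spaQ (adjusted p = 0.994), and their difference was -0.998 ± 0.26 (adjusted p = 0.0262). Without the 2 spaQ libraries that stood apart the difference was -1.37 ± 0.20 (adjusted p = 0.00058). It missed the threshold in 6 of 12 fits without 1 library, those without any replicate of cool Col-0, replicate 1 of warm Col-0 or replicate 2 or 3 of cool spaQ, where the adjusted p reached 0.0648. In spaQ XTH7 was lower by -0.73 ± 0.18 at 22 °C (adjusted p = 0.00622) and by -1.73 ± 0.18 at 28 °C (adjusted p = 2.03e-05).

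XTH5, XTH6, XTH8 and XTH16 followed one pattern, with cool Col-0 above every other library. XTH6 was at 80.5, 78.5 and 92.0 CPM in cool Col-0, 32.6, 24.9 and 24.3 CPM in warm Col-0, 22.9, 14.9 and 10.8 CPM in cool spaQ and 15.4, 44.5 and 6.45 CPM in warm spaQ. XTH5 ranged over 8.95 to 13.0, 3.85 to 4.38, 1.67 to 4.04 and 1.98 to 4.40 CPM in these groups, XTH8 over 24.2 to 27.4, 7.45 to 12.7, 0.766 to 6.22 and 1.19 to 5.63 CPM, and XTH16 over 41.3 to 48.4, 25.9 to 26.7, 13.8 to 18.2 and 10.3 to 29.8 CPM. In warm spaQ, XTH5, XTH6, XTH8 and XTH16 were highest in replicate 2, one of the libraries with more root marker RNA, whose part in this was not tested. With warmth in Col-0 the log2 fold changes were -1.33 ± 0.27 for XTH5, -1.61 ± 0.42 for XTH6, -1.40 ± 0.37 for XTH8 and -0.77 ± 0.24 for XTH16, with adjusted p from 0.00181 to 0.0221. Cool spaQ was lower than cool Col-0 by -1.75 ± 0.31, -2.30 ± 0.46, -2.75 ± 0.45 and -1.42 ± 0.26 (adjusted p from 0.000478 to 0.00171). XTH8 was also lower in warm spaQ than in warm Col-0, by -1.62 ± 0.49 (adjusted p = 0.0239), a call lost without replicate 1 of warm Col-0 or replicate 1 or 3 of warm spaQ, while without replicate 2 of warm spaQ the value was -2.67. The warm call of XTH16 was lost with library totals in place of TMM and without any 1 of the 6 Col-0 libraries. Without replicate 1 of cool spaQ the difference of XTH8 in cool seedlings was -3.98. Their interactions were 1.43, 2.04, 1.13 and 0.98 and did not pass (adjusted p from 0.0567 to 0.339). These interactions are uncertain: that of XTH6 passed under DESeq2's test, with no filter and in 3 of the 12 fits without 1 library, those of XTH5 and XTH16 in 2 and 1 of these fits and that of XTH8 in 0. Over the fits without 1 library XTH6 ranged from 0.82 to 2.47, and XTH8 from 0 to 2.36. With the 2 spaQ libraries left out, XTH6 and XTH16 were lower in warm spaQ than in warm Col-0 as well, by -1.44 ± 0.27 and -1.03 ± 0.18 (adjusted p = 0.000972 and 0.000588).

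XTH9 was at 87.1, 97.0 and 91.7 CPM in cool Col-0, 64.0, 105 and 87.0 CPM in warm Col-0, 51.6, 57.5 and 67.5 CPM in cool spaQ and 34.1, 37.7 and 45.1 CPM in warm spaQ. It was lower in spaQ by -0.65 ± 0.17 at 22 °C (adjusted p = 0.00948) and by -1.12 ± 0.18 at 28 °C (adjusted p = 0.000385), with no overlap of the groups. XTH15, known from shade-treated petioles with XTH16 and XTH17, was at 21.1, 12.6 and 12.3 CPM in cool Col-0, 68.4, 31.1 and 21.2 CPM in warm Col-0, 9.25, 3.45 and 5.00 CPM in cool spaQ and 3.56, 19.6 and 2.15 CPM in warm spaQ. It passed at 28 °C, where spaQ was lower by -2.16 ± 0.61 (adjusted p = 0.0161), and without the 2 spaQ libraries this was -3.93 ± 0.64 (adjusted p = 0.000344). With those left out XTH15 also passed with warmth in Col-0, at 1.51 ± 0.38 (adjusted p = 0.00469), against 1.42 ± 0.57 with all libraries (adjusted p = 0.0611). No Col-0 library was left out there, and the spread, which all libraries share, was estimated without those 2. Between genotypes at 22 °C XTH15 passed in that fit at -1.82 ± 0.71 (adjusted p = 0.0499). The call at 28 °C was lost with only the libraries compared and without replicate 1 of warm Col-0 or without replicate 1 or 3 of warm spaQ, with an adjusted p of up to 0.0931. XTH15 overlaps AT4G14120 on the other strand, and the sources used here do not give the strand setting of the counting, so its counts are uncertain. XTH10 had too few counts to test and stayed at or under 2.83 CPM.

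Group III holds members of a separate branch of the family, among them XTH31 and XTH32, which are known as hydrolases or weak transferases, and it did not move one way. Of 6 tested members, XTH31 and XTH32 fell with warmth in both genotypes, while XTH29 and XTH30 rose in Col-0 and XTH28 and XTH30 in spaQ. That is 2 in each direction, where 18.9% and 21.9% of all tested genes were higher and lower in Col-0 and 6.55% and 5.87% in spaQ. XTH31 (AT3G44990) was at 224, 229 and 192 CPM in cool Col-0, 163, 105 and 126 CPM in warm Col-0, 96.7, 81.6 and 72.1 CPM in cool spaQ and 33.3, 51.6 and 57.7 CPM in warm spaQ. The 4 groups were in this order with no overlap between any of them. It changed by -0.71 ± 0.20 on the log2 scale with warmth in Col-0 and by -0.81 ± 0.21 in spaQ (adjusted p = 0.0118 and 0.024), with an interaction of -0.11 ± 0.28 (adjusted p = 0.863). Both warm calls were fragile: that of Col-0 was lost with library totals in place of TMM and without replicate 1 or 2 of cool Col-0 or replicate 2 of warm Col-0, and that of spaQ with only the libraries compared, without replicate 1 or 2 of cool spaQ or replicate 1 of warm spaQ, and without both spaQ libraries that stood apart. In spaQ XTH31 was lower by -1.36 ± 0.20 at 22 °C (adjusted p = 0.000229) and by -1.46 ± 0.21 at 28 °C (adjusted p = 0.000166).

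XTH32 was at 33.2, 38.9 and 31.3 CPM in cool Col-0, 15.1, 15.2 and 12.9 CPM in warm Col-0, 27.2, 22.2 and 24.2 CPM in cool spaQ and 11.9, 15.4 and 12.6 CPM in warm spaQ. The cool libraries were above the warm ones in both genotypes. It fell by 1.26 ± 0.14 on the log2 scale with warmth in Col-0 (adjusted p = 4.64e-05) and by 0.88 ± 0.16 in spaQ (adjusted p = 0.00445), with an interaction of 0.38 ± 0.21 (adjusted p = 0.276), and was lower in cool spaQ than in cool Col-0 by -0.47 ± 0.14 (adjusted p = 0.0184). That genotype call was lost under DESeq2's test and without replicate 2 of cool Col-0 or replicate 2 or 3 of cool spaQ. XTH27, known from the veins of young leaves, was higher in spaQ, at 175, 194 and 217 CPM against 106, 123 and 115 CPM in cool seedlings and 224, 245 and 184 CPM against 95.6, 90.4 and 100 CPM in warm seedlings. The genotypes did not overlap, and the log2 fold changes were 0.77 ± 0.13 (adjusted p = 0.000526) and 1.19 ± 0.13 (adjusted p = 2.2e-05).

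XTH28, its close relative with a coding sequence 77.4% identical, moved less. It was at 64.2, 70.5 and 68.2 CPM in cool Col-0, 73.3, 76.3 and 65.5 CPM in warm Col-0, 66.1, 57.1 and 78.4 CPM in cool spaQ and 84.3, 99.8 and 97.9 CPM in warm spaQ, where every library was above the others. Its log2 fold change was 0.49 ± 0.13 with warmth in spaQ (adjusted p = 0.0254) and 0.39 ± 0.12 between genotypes at 28 °C (adjusted p = 0.0281), with an interaction of 0.41 ± 0.18 (adjusted p = 0.159). Neither passed without the 2 spaQ libraries that stood apart or with only the libraries compared, the genotype difference was also lost with library totals and with no filter, and the calls held in 9 and 6 of the 12 fits that left out 1 library. XTH30, at 15.7 to 19.9 CPM in cool Col-0, 29.6 to 51.5 CPM in warm Col-0, 26.2 to 42.9 CPM in cool spaQ and 41.3 to 93.9 CPM in warm spaQ, passed in all 4 comparisons. Its log2 fold changes were 1.14 ± 0.30 and 0.96 ± 0.29 with warmth in Col-0 and spaQ (adjusted p = 0.00903 and 0.0487) and 0.98 ± 0.31 and 0.80 ± 0.28 between genotypes at 22 °C and 28 °C (adjusted p = 0.0237 and 0.0438), with an interaction of -0.18 ± 0.42 (adjusted p = 0.836). The spaQ groups overlapped, as did the groups at 28 °C, and these 2 calls passed in 2 and 4 of the 12 fits that left out 1 library and were lost with only the libraries compared. With DESeq2's size factors that of spaQ was lost, and with library totals that of 28 °C. The call at 22 °C was lost without replicate 2 or 3 of cool Col-0 or replicate 2 or 3 of cool spaQ.

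XTH29 was nearly absent from cool Col-0. Its counts there were 0, 1 and 2, or 0 to 0.448 CPM, against 3.72, 4.11 and 6.45 CPM in warm Col-0, 3.70, 5.75 and 11.3 CPM in cool spaQ and 8.71, 3.18 and 14.1 CPM in warm spaQ. Warm Col-0 held 112 counts against 3 in cool Col-0, a ratio of 18.2 with a counting interval of 6.06 to 89.5 (adjusted p = 0.00286), and cool spaQ held 64 counts, a ratio of 22.1 with an interval of 7.24 to 110.0 (adjusted p = 0.00172). The spaQ groups overlapped. Without the 2 spaQ libraries that stood apart, warm spaQ was above warm Col-0 by 1.21 ± 0.36 (adjusted p = 0.0166). The interaction passed, with a fitted value of -3.66 ± 1.09 (adjusted p = 0.0472), which depends on the prior count since cool Col-0 is near 0, and it passed in 3 of the 12 fits without 1 library. XTH33 had too few counts to test and was at 0.417 to 3.08 CPM.

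Of the 9 members known from roots and root hairs, 7 were tested, and with warmth in Col-0 4 of them fell (XTH12, XTH14, XTH20 and XTH26) and XTH18 rose, where 21.9% and 18.9% of all tested genes did so. The 4 tested root hair markers also fell in that comparison, as did all 6 tested endodermis markers and 5 of 6 green tissue markers. XTH14 (AT4G25820), of the root elongation zone, was at 38.9, 39.4 and 32.9 CPM in cool Col-0, 0.744, 4.37 and 1.73 CPM in warm Col-0, 10.6, 3.83 and 2.08 CPM in cool spaQ and 7.13, 18.1 and 5.22 CPM in warm spaQ. Cool Col-0 was above and warm Col-0 below all warm spaQ libraries, and the spaQ groups overlapped. Its log2 fold change was -4.31 ± 0.57 with warmth in Col-0 (19.9-fold, adjusted p = 0.000108), -2.52 ± 0.51 between genotypes at 22 °C (adjusted p = 0.00198) and 2.51 ± 0.63 at 28 °C (adjusted p = 0.00831). The interaction was 5.03 ± 0.81 (adjusted p = 0.00428), and it passed under all 19 other settings that could be fitted, the only interaction of a member that did. Without the 2 spaQ libraries that stood apart the interaction was 5.30 ± 0.71 (adjusted p = 0.000368) and the difference at 28 °C was 1.70 ± 0.51 (adjusted p = 0.0189). Without replicate 2 of warm spaQ alone that difference missed the threshold at 1.71 (adjusted p = 0.0592), and without replicate 2 of warm Col-0 it was 3.12. Without replicate 1 of cool spaQ the difference at 22 °C was -3.61. Replicate 1 of warm spaQ held 7.13 CPM of XTH14 with all 6 root hair markers at 0, 15.8 CPM of endodermis markers and 1.19 CPM of the other root markers. The part of root tissue in these values was not tested.

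XTH14 lies 363 bp downstream of XTH23 on the same strand of chromosome 4, with no coding gene between them. With warmth in Col-0 the neighbours went in opposite directions, XTH23 up and XTH14 down.

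XTH12 was at 8.74, 8.11 and 6.26 CPM in cool Col-0, 0.0929, 0 and 0 CPM in warm Col-0, 2.19, 0 and 0 CPM in cool spaQ and 0, 2.45 and 0 CPM in warm spaQ. Outside cool Col-0 and 1 count in warm Col-0, its reads came from the 2 spaQ libraries with more root marker RNA. Cool Col-0 held 86 counts against 1 in warm Col-0, a ratio of 177 with a counting interval of 30.9 to 7050 (adjusted p = 0.000406), and cool spaQ was lower than cool Col-0 by a log2 fold change of -2.78 ± 0.79 (adjusted p = 0.0131), a call lost under DESeq2's test. The fitted interaction of 6.64 ± 1.79 passed (adjusted p = 0.0317) but depends on the prior count, and with those 2 libraries left out all remaining spaQ libraries were at 0 and no interaction could be estimated. It passed in 3 of the 12 fits without 1 library, and not under DESeq2's test. The difference in cool seedlings was a fitted -8.11 without replicate 1 of cool spaQ. XTH26, a root hair gene, was at 4.22, 6.15 and 4.25 CPM in cool Col-0, 0 to 0.558 CPM in warm Col-0, 0.834 to 1.68 CPM in cool spaQ and 0, 2.20 and 0.307 CPM in warm spaQ. It fell by 3.73 ± 0.71 with warmth in Col-0 (adjusted p = 0.00118) and was lower in cool spaQ than in cool Col-0 by -1.85 ± 0.65 (adjusted p = 0.0373), with an interaction of 3.30 ± 1.18 (adjusted p = 0.0891). The genotype call of XTH26 was lost without any 1 cool library or replicate 2 of warm Col-0, and its warm change in Col-0 ran from -4.63 without replicate 1 of warm Col-0 to -3.09 without replicate 3. XTH26 shares a stretch of 50 nt near its 3′ end with AT2G05205, so its counts are uncertain. XTH13, whose coding sequence is 89.4% identical to that of XTH12, and XTH21 had too few counts to test and were highest in cool Col-0, at 1.57 to 7.84 and 1.40 to 4.92 CPM against at most 1.96 and 1.01 CPM elsewhere.

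**Figure D4:**
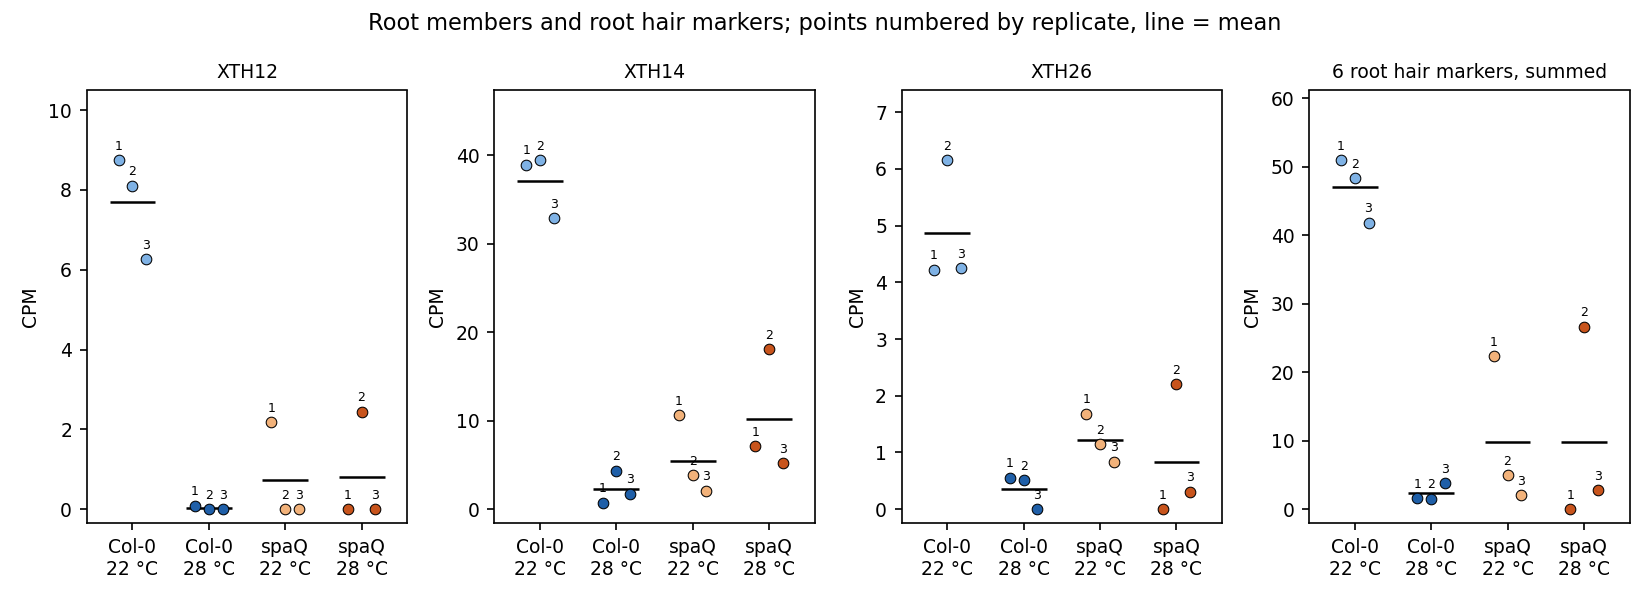
CPM of XTH12, XTH14 and XTH26 and the summed CPM of 6 root hair markers in each library, with points numbered by replicate and a line at the group mean. In all 4 panels cool Col-0 is highest, and replicate 1 of cool spaQ and replicate 2 of warm spaQ stand above the other replicates of their groups.

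The remaining members were scarce. XTH11 was at 0.905, 0.559 and 1.12 CPM in cool Col-0, 2.60, 3.85 and 2.88 CPM in warm Col-0, 1.34 to 2.92 CPM in cool spaQ and 2.45 to 7.06 CPM in warm spaQ. It was higher in warm than in cool Col-0 by 1.75 ± 0.51 on the log2 scale (adjusted p = 0.0148), a call lost without replicate 2 of cool Col-0, and its interaction was -0.40 ± 0.69 (adjusted p = 0.765). Without the 2 spaQ libraries that stood apart it also passed with warmth in spaQ, at 1.35, and between genotypes at 22 °C and 28 °C, at 1.55 and 1.11 (adjusted p = 0.044, 0.0253 and 0.0131). XTH1 had 1 count and XTH2 had 3 counts in the 12 libraries together, and XTH3 had 0, where 3 counts allow at most 0.279 to 1.25 CPM by library.

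**Figure D5:**
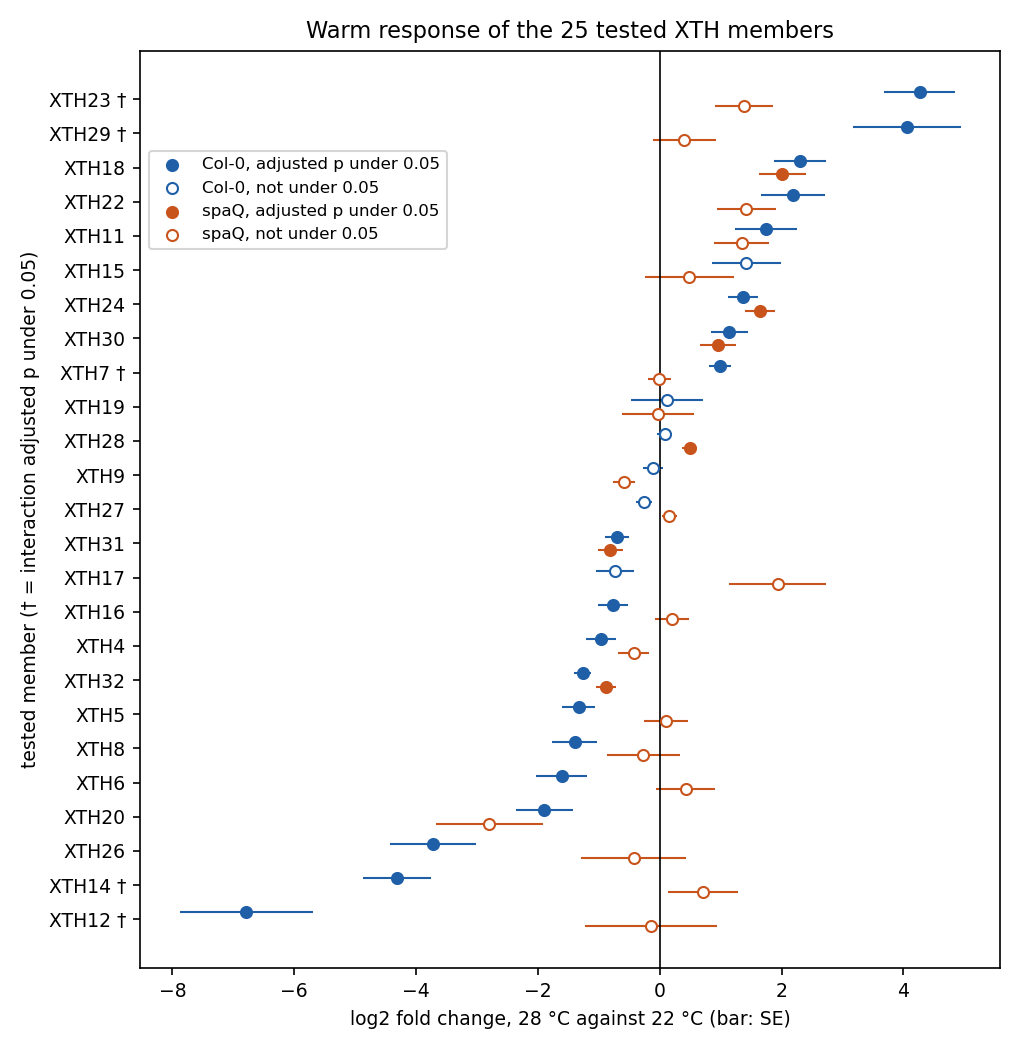
Log2 fold change at 28 °C against 22 °C of the 25 tested members in Col-0 (blue) and spaQ (orange), with SE bars, filled points for an adjusted p under 0.05 and a dagger for the 5 members whose interaction passed. XTH23 and XTH29 are at the top and XTH12 at the bottom, XTH14 lies at -4.31 in Col-0, and XTH24 and XTH18 have filled points to the right of 0 in both genotypes.

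Among the genes that make and trim xyloglucan, those that passed between the genotypes were all lower in spaQ in cool seedlings and went both ways in warm ones. Of 18 such genes 15 were tested. With warmth 3 passed in Col-0 (20%, against 40.8% of all tested genes), all lower, where 21.9% of all tested genes were lower. In spaQ 4 passed (26.7%, against 12.4%), 2 in each direction, against 6.55% higher and 5.87% lower. Between genotypes 8 passed at 22 °C (53.3%, against 42.5%), all lower in spaQ, where 21.7% of all tested genes were lower. At 28 °C 7 passed (46.7%, against 30.9%), 2 higher and 5 lower, against 17.4% and 13.5% of all tested genes. Their median log2 fold changes were -0.25, 0.04, -0.33 and -0.18. XYL1, the xylosidase that trims xyloglucan side chains, was at 219, 206 and 224 CPM in cool Col-0 and 225, 210 and 206 CPM in warm Col-0, against 99.4, 85.5 and 73.0 CPM in cool spaQ and 61.0, 89.8 and 79.5 CPM in warm spaQ. The genotypes were far apart, with log2 fold changes of -1.32 ± 0.15 at 22 °C (adjusted p = 2.66e-05) and -1.47 ± 0.15 at 28 °C (adjusted p = 1.24e-05). CSLC5, of the family that makes the glucan backbone, was lower in spaQ as well, by -0.80 ± 0.14 and -1.27 ± 0.14 (adjusted p = 0.000609 and 2.44e-05). It also fell with warmth in spaQ by 0.57 ± 0.15 (adjusted p = 0.0255), a call lost under DESeq2's test, with only the libraries compared and in 5 of the 12 fits without 1 library. XXT2, a xylosyltransferase, was lower in spaQ by -0.76 ± 0.12 and -0.43 ± 0.12 (adjusted p = 0.000303 and 0.0124), the second of which was lost without replicate 1 of warm Col-0 or replicate 3 of warm spaQ. XLT2, a galactosyltransferase, was lower in cool spaQ than in cool Col-0 by -1.03 ± 0.19 (adjusted p = 0.00107) and fell with warmth in Col-0 by 0.71 ± 0.18 (adjusted p = 0.00691).

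XXT1, another xylosyltransferase, was higher in warm than in cool spaQ. It was at 18.7, 16.5 and 17.5 CPM in cool Col-0, 18.5, 32.6 and 21.1 CPM in warm Col-0, 13.5, 19.9 and 32.5 CPM in cool spaQ and 52.7, 29.6 and 54.3 CPM in warm spaQ. The spaQ groups overlapped in 1 library each. Its rise with warmth in spaQ was 1.099 ± 0.319 on the log2 scale (adjusted p = 0.0404), which passed in 4 of the 12 fits without 1 library and not with only the libraries compared. XXT5 fell with warmth in Col-0 by 0.37 ± 0.11 (adjusted p = 0.0153), a call lost with library totals in place of TMM, with no filter and without replicate 1 or 3 of cool Col-0 or replicate 1 of warm Col-0.

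BGAL10, a galactosidase acting on xyloglucan, fell with warmth in both genotypes. It was at 35.9, 35.5 and 36.9 CPM in cool Col-0, 15.7, 18.5 and 15.4 CPM in warm Col-0, 32.0, 26.8 and 28.8 CPM in cool spaQ and 8.71, 16.1 and 14.4 CPM in warm spaQ. The warm libraries were below the cool ones in each genotype, by -1.14 ± 0.17 (adjusted p = 0.000206) and -1.13 ± 0.18 (adjusted p = 0.00259) on the log2 scale. AXY8, a fucosidase, was at 40.4, 41.4 and 44.8 CPM in cool Col-0, 43.9, 47.0 and 34.9 CPM in warm Col-0, 32.0, 27.2 and 43.8 CPM in cool spaQ and 66.5, 96.4 and 54.0 CPM in warm spaQ. It rose with warmth in spaQ by 1.09 ± 0.22 (adjusted p = 0.00748) and was higher in warm spaQ than in warm Col-0 by 0.80 ± 0.21 (adjusted p = 0.01). With only the libraries compared neither passed, and the genotype difference was also lost with library totals and without replicate 3 of warm Col-0. Its interaction of 1.11 ± 0.30 (adjusted p = 0.0324) was the only one in this list to pass. That interaction was lost in 9 of the 12 fits without 1 library, with library totals, and without the 2 spaQ libraries that stood apart.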

How the data were processed

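Read counts per gene from 12 libraries (3 per group) were used as the authors deposited them, 1 column per library, not normalised and not pooled. FastQC, Bowtie2, TopHat, HTSeq and edgeR are named, with no versions, in the submitters' processing notes. Genome build, strand setting and duplicate removal are not given in the sources used here. The 5 summary lines of the table were left out, of which the line of ambiguous reads came to 0.455% to 0.620% of the counted reads of a library. No molecular identifiers are named, so reads need not be separate molecules, and counting intervals (exact, 95%) and the floor of 3 counts per library cover counting error only. Replicates differed beyond counting noise, with a chi-square per degree of freedom of 1.47 to 24.8.

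Genes were filtered with filterByExpr over the 4 groups, which left 17841, and scaled with TMM (factors 0.917 to 1.16). A model with 1 coefficient per group over all 12 libraries was fitted with edgeR 4.0.16 in R 4.3.3 (glmQLFit, quasi-likelihood F-test, two-sided), with Benjamini-Hochberg adjustment over all tested genes. A gene was called at an adjusted p under 0.05. SEs were computed from each estimate and its F value. Where a group held 3 or fewer counts in all, the ratio of summed counts and its interval are given in place of the fitted fold. The procedure was tested on simulated data. Alternatives were DESeq2 1.42.0, other scalings and filters, a replicate block, only the libraries compared, leaving out each library and, added after the data were seen, leaving out 2 spaQ libraries together.

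The members, role groups and other lists were chosen with earlier results of these data known. Every member with counts is named with its levels, fold changes are given for called members and interactions for members with a warm call, and of the xyloglucan list up to 4 called genes per comparison by smallest p. Names, gene order, sequences and overlaps come from RefSeq's TAIR10.1 annotation by locus identifier, which matched all 33 members. The TATAAA motif was added after the data were seen.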

Additional observations from a re-analysis of the deposited data

Results flagged for a closer look

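The warm response differed between the genotypes for 5 members by the interaction test of edgeR, each value being the log2 fold change with warmth in spaQ minus that in Col-0. XTH14 had a difference of 5.03 (adjusted p = 0.00428) and XTH12 one of 6.64 (adjusted p = 0.0317), both with a fall in Col-0 that was not seen in spaQ, whose cool level was already low. XTH12 had 13, 0 and 0 counts in cool spaQ and 0, 10 and 0 in warm spaQ, so a fall there could hardly be seen. Its value depends on the prior count and could not be estimated without the 2 spaQ libraries that stood apart. XTH23 had a difference of -2.88 (adjusted p = 0.0263), XTH29 one of -3.66 (adjusted p = 0.0472) and XTH7 one of -0.998 (adjusted p = 0.0262). XTH14 passed under every other setting that could be fitted. The calls of XTH7, XTH23 and XTH29 were lost in 6, 6 and 9 of the 12 fits that left out 1 library, and that of XTH12 also in 9. Groups of 3 libraries are too small for a search for single outlying values, so none was made.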

How the results depend on the processing

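Of 67 calls of members, 46 passed under every alternative run and none changed direction. With library totals in place of TMM the median over all genes shifted, on the log2 scale, to 0.19 for warmth in Col-0, -0.14 and -0.23 between genotypes at 22 °C and 28 °C and -0.12 for the interaction. The calls over all genes then split into 5382 higher and 2503 lower with warmth in Col-0 (3375 and 3908 with TMM), 3233 and 4597 (3698 and 3876) and 1848 and 4666 (3103 and 2416) between genotypes, and 485 and 1406 (1174 and 943) for the interaction. With only the libraries compared, warmth in spaQ gave 418 calls over all genes in place of 2217, 2 members higher, 1 lower and 1 xyloglucan gene, and the genotypes at 28 °C 3 xyloglucan genes. DESeq2's Wald test gave 4 members lower with warmth in spaQ, as did no filter, and 4 xyloglucan genes between genotypes at 22 °C. A filter at a mean of at least 10 counts left XTH12 untested and so gave 1 member with a higher interaction. Leaving out both spaQ libraries that stood apart gave 1 such member as well. That fit and library totals each gave 0 xyloglucan genes for the interaction. Same-numbered libraries did not deviate together (mean r = -0.0427, from -0.365 to 0.178). Deviations from means of 3 libraries cannot exclude that the numbers pair them. A replicate block gave 2 members higher with warmth in spaQ, and for the interaction 1343 calls, 1 member higher and 0 xyloglucan genes. That block lost the warm calls in spaQ of XTH28, XTH30, XTH31 and XXT1. It also lost the genotype calls at 28 °C of XTH20, XTH28 and XTH30 and the interactions of XTH12 and AXY8.

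Leaving out 1 library gave 2 to 7 members higher and 1 to 4 lower with warmth in spaQ, with 1088 to 4024 calls over all genes and 2 to 4 xyloglucan genes. It gave 5 to 10 members lower in spaQ at 28 °C, and 4 to 8 and 4 to 7 xyloglucan genes between genotypes at 22 °C and 28 °C. The interaction had 1 to 6 members higher, 0 to 3 lower, 0 to 1 xyloglucan genes and 885 to 2838 calls. Depth limits the scarce members, 8 of which could not be tested.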
